A study of Sus scrofa with 13 samples.

Results

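Imprinted genes are transcribed mainly from the copy inherited from 1 parent, because a DNA methylation mark set in the egg or the sperm is kept through the early embryo. Many of them control growth of the fetus and the placenta: in mouse, several genes expressed from the father's copy (IGF2, PEG3, MEST, PLAGL1, PEG10 and DLK1) favour growth or placental development, and several expressed from the mother's copy (IGF2R, H19, CDKN1C and PHLDA2) restrain it. The marks are held while the rest of the embryo's genome loses methylation before implantation, and embryo culture is a known setting for disturbed imprinting. The values given here are total message levels, with no information on which parental copy was read.

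The 10 genes just named were chosen by symbol, and 9 of them had a row among the 28232 genes of the pig gene table. No row carried the symbol H19, and H19 was not analysed here. The libraries were made from polyadenylated RNA of pooled pig (Sus scrofa) embryos produced by in vitro fertilisation (IVF) and collected as 4-cell embryos, blastocysts or hatched blastocysts (3 libraries each), and from embryos that developed in vivo, collected as hatched blastocysts or blastocysts (2 libraries each). In a blastocyst an outer cell layer, the trophectoderm, surrounds a cavity and the inner cell mass, and on hatching the embryo escapes from the coat of the egg. No source used here gives the breed, the embryo age, the pool size, or whether separate animals or fertilisation rounds stood behind the libraries of a group. The p-values therefore cover only the spread among libraries, part of which may be technical. In vivo 4-cell embryos were not analysed here.

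Total counts lay between 33259311 and 39273867 per library. Levels are given as CPM, the counts scaled to a common library total, and 3 counts, used as the floor, are worth 0.0764 to 0.0902 CPM. In vivo hatched library 2 and a second in vivo hatched library, whose count column carried no number and which is called the unnumbered library, made up that group. Summed trophectoderm markers lay between 19860.6 and 37434.1 CPM in the blastocyst and hatched libraries and between 105.6 and 863.3 CPM in the 4-cell libraries, and summed oocyte markers lay between 0.362 and 18.8 CPM and between 19283.6 and 24607.7 CPM in the same 2 sets. Summed hypoblast markers reached 4403 and 10283 CPM in the in vivo hatched libraries and at most 1629 CPM elsewhere. Epiblast and inner cell mass markers summed to 507 to 2604 CPM and oviduct and uterine epithelium markers to 207 to 805 CPM over all libraries. EPCAM alone held 167 to 803 CPM of the oviduct and uterine sums. Markers of cumulus and granulosa cells stayed at or below 324 CPM, of stroma and vessel at or below 54.8 CPM, of blood at or below 14.1 CPM and of sperm at or below 12.4 CPM. The 324 CPM, in IVF hatched library 1, were mostly CYP11A1 (172 CPM) and STAR (151 CPM). FSHR, LHCGR, FOXL2, INHA and AMH had no count in that library. In RNA from pooled embryos, fewer cells of a type and less RNA per cell cannot be told apart.

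Positions are spans of the genes on the Sscrofa11.1 build. IGF2 (chromosome 2, 1469183 to 1496417), CDKN1C (chromosome 2, 2019391 to 2022092) and PHLDA2 (chromosome 2, 2057679 to 2058675) share a chromosome, and CDKN1C and PHLDA2 are 35587 bases apart. IGF2R (7369485 to 7472480) and PLAGL1 (21299830 to 21371070) lie on chromosome 1. PEG3 lies on chromosome 6 (61281931 to 61307788), DLK1 on chromosome 7 (121565844 to 121577493), PEG10 on chromosome 9 (74474121 to 74486983) and MEST on chromosome 18 (18319126 to 18358655). The span of MEST overlaps that of COPG2, which encodes a coatomer subunit. Whether strand was used in counting was not given in the sources used here, so reads of MEST and COPG2 may not be fully separated and both are uncertain.

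The 9 genes together held 492 to 584 CPM in the 4-cell libraries and 77.5 to 183 CPM in the other 10. Per length, as the authors' FPKM (fragments scaled by gene length and library size), MEST led in 4-cell embryos with 139 ± 25.9 (SD, n = 3), above 97.8% of all genes, followed by PHLDA2 with 71.6 ± 73.5. In IVF blastocysts the order by FPKM level was PHLDA2 (43.5 ± 9.17), MEST (8.52 ± 3.68) and CDKN1C (7.63 ± 1.02). In IVF hatched blastocysts it was PHLDA2 (30.7 ± 11.6), CDKN1C (12.9 ± 6.88) and MEST (8.15 ± 1.89, SD, n = 3). In vivo hatched library 2, the one library of its group with FPKM values used here, had 13.8 FPKM of MEST, 10.4 of PHLDA2 and 8.18 of CDKN1C. In vivo blastocysts were the one group led by CDKN1C, with 29.4 ± 19.7 FPKM, against 11.3 ± 0.808 for MEST and 10.7 ± 5.05 for PHLDA2 (SD, n = 2).

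**Figure D1:**
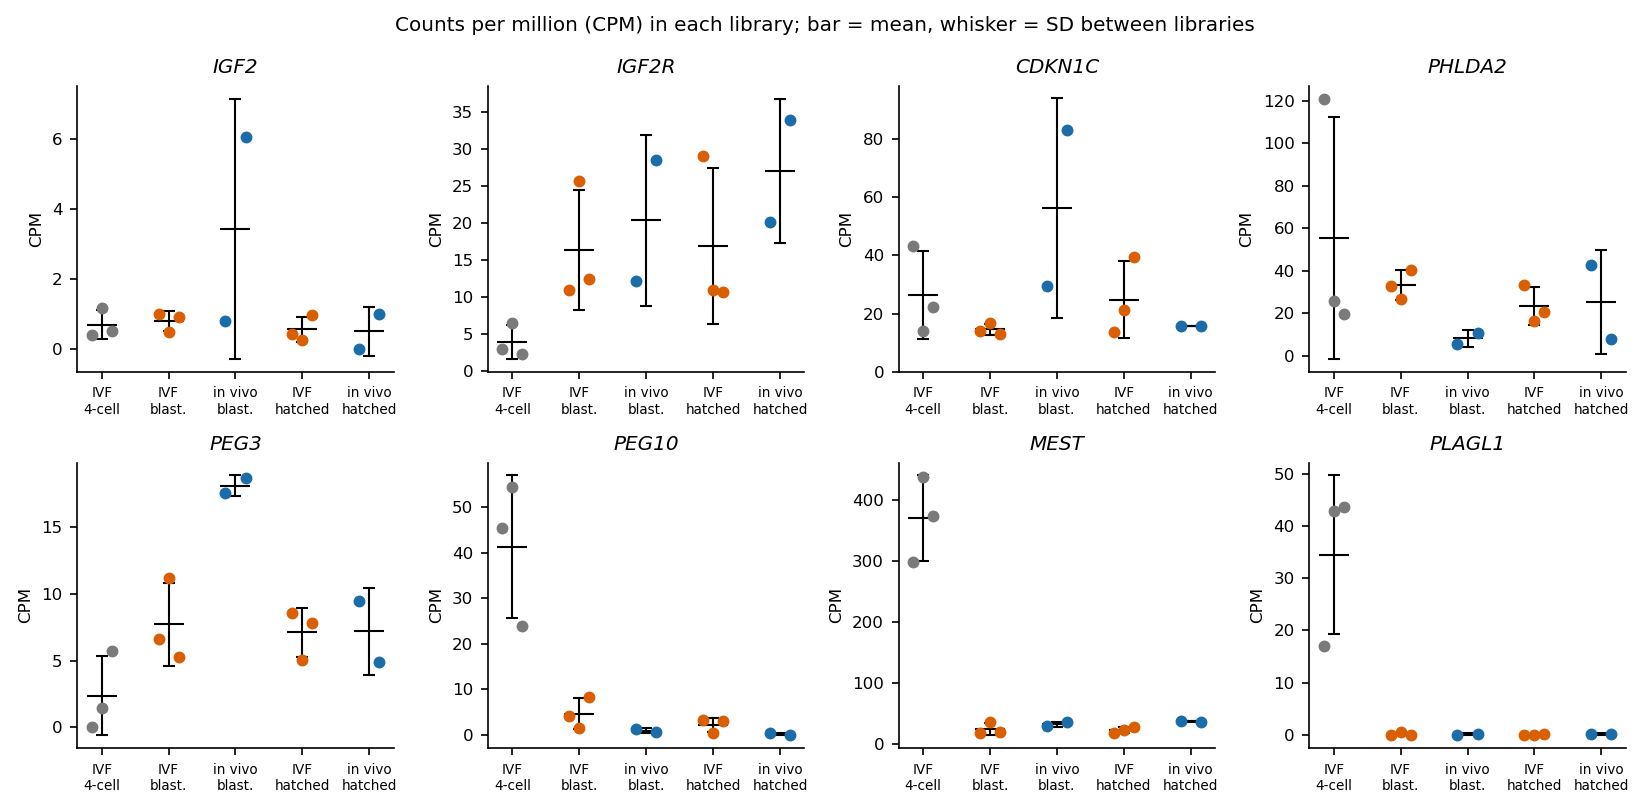
Level in CPM (vertical axes, a scale for each gene) of the 8 genes with any count, in each library of the 5 groups (points), with the group mean and SD (bars and whiskers). MEST, PEG10 and PLAGL1 were highest in all 3 4-cell libraries, PEG3 in both in vivo blastocyst libraries, and CDKN1C reached its highest level, 83.0 CPM, in in vivo blastocyst library 2.

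The growth factor and its receptor were both detected, at very different levels. IGF2 encodes insulin-like growth factor 2, a fetal growth factor. It had 0.385, 1.17 and 0.505 CPM in IVF 4-cell libraries 1 to 3, 0.993, 0.465 and 0.907 in IVF blastocysts, and 0.421, 0.259 and 0.966 in IVF hatched blastocysts. In vivo, it had 0.991 CPM in hatched library 2 and no count in the unnumbered hatched library, against 0.798 and 6.06 CPM in blastocyst libraries 1 and 2. In vivo blastocyst library 2 was therefore the one library above 1.2 CPM, and neighbouring groups in the order of IGF2 levels overlapped in all cases. IGF2 was called in no comparison. Its counts per library were 0 to 39 outside that library, where 225 were counted.

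IGF2R encodes the receptor that takes IGF2 into the lysosome for degradation. It rose in IVF blastocysts and IVF hatched blastocysts over 4-cell embryos. Its levels were 2.90, 6.49 and 2.26 CPM in the 4-cell libraries, 10.9, 25.6 and 12.4 CPM in IVF blastocysts and 29.0, 10.9 and 10.7 CPM in IVF hatched blastocysts, so that no later library fell into the 4-cell range. In vivo, the hatched libraries had 33.9 CPM (library 2) and 20.1 CPM (unnumbered), against 12.1 and 28.5 CPM in the blastocyst libraries, which overlapped with each other and with IVF embryos of both stages. The log2 fold change was 2.33 ± 0.65 (SE, adjusted p = 0.0135) for IVF blastocysts and 2.41 ± 0.65 (adjusted p = 0.0117) for IVF hatched blastocysts, each against 4-cell embryos, in edgeR's quasi-likelihood test with Benjamini-Hochberg adjustment over all genes. The call in hatched blastocysts ended without IVF hatched library 1 (log2 fold change 1.81, adjusted p = 0.0545). The count of IGF2 was 0 to 0.224 times that of IGF2R within each of the 13 libraries.

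DLK1, which encodes a membrane protein related to Notch ligands, had no count in any of the 13 libraries, which allows up to 0.0902 CPM in a library at the floor of 3 counts. MEG3, a noncoding RNA 78760 bases from DLK1 that is expressed from the mother's copy in mouse and human, had 3.08 and 5.64 CPM in the in vivo hatched libraries and between 0 and 1.35 CPM in the other 11.

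Levels in IVF and in vivo blastocysts did not overlap for 4 of the 7 genes tested. Of the growth-restraining genes on chromosome 2, CDKN1C was higher and PHLDA2 lower in vivo, and PEG3 and PEG10 were the others. Only CDKN1C passed the test, and the share of all genes without such overlap was not counted. CDKN1C encodes p57, an inhibitor of cyclin-dependent kinases that stops the cell cycle, and is required for a normal placenta in mouse. It had 14.03, 16.8 and 13.1 CPM in IVF blastocyst libraries 1 to 3, against 29.6 and 83.0 CPM in in vivo blastocyst libraries 1 and 2. It had 13.6, 21.4 and 39.3 CPM in IVF hatched blastocysts, against 15.7 and 15.6 CPM in in vivo hatched blastocysts. In 4-cell embryos it had 43.2, 13.98 and 22.1 CPM. The IVF blastocysts thus all lay below both in vivo blastocyst libraries, and so did the in vivo hatched libraries, whereas the IVF and in vivo hatched libraries overlapped.

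CDKN1C was lower in IVF blastocysts than in those grown in vivo (log2 fold change -1.93 ± 0.43, edgeR adjusted p = 0.0182). It also fell on hatching in vivo (-1.88 ± 0.49, adjusted p = 0.0260), and these comparisons share the in vivo blastocyst libraries. The change on hatching was 0.78 ± 0.39 in IVF embryos (adjusted p = 1), and the change in IVF minus the change in vivo was 2.66 ± 0.62 (adjusted p = 0.0364), which again rests on the same libraries. Without in vivo blastocyst library 2, the difference between IVF and in vivo blastocysts was -1.14 (adjusted p = 0.129) and the in vivo hatching change -1.09 (adjusted p = 0.165). The call between IVF and in vivo blastocysts also ended without IVF blastocyst library 1 (-1.90, adjusted p = 0.0589) or 3 (-1.85, adjusted p = 0.0544), and the in vivo hatching call without hatched library 2 (-1.83, adjusted p = 0.129) or the unnumbered library (-1.93, adjusted p = 0.0794). The call on the difference of changes held in 2 of the 10 fits that left out a library, with values of 1.87 to 3.14 and an adjusted p of at most 0.106. Trophectoderm markers summed to 31067 to 37434 CPM in IVF blastocysts and to 22644 and 22822 CPM in in vivo blastocysts. KRT8 alone held 26788 to 33381 CPM of the IVF sums and 20282 and 19398 CPM of those in vivo. GATA3 (47.5 to 81.4 CPM in IVF, 106 and 131 CPM in vivo) and TFAP2A were higher in vivo. Of the 10 markers tested, 1 was called higher and 1 lower in IVF blastocysts. The part of these markers in the CDKN1C differences was not tested.

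PHLDA2 encodes a small lipid-binding protein that limits placental growth in mouse. It had 32.9, 26.6 and 40.6 CPM in IVF blastocysts, against 5.46 and 10.9 CPM in in vivo blastocysts. The 2 sets of libraries did not overlap, but the log2 fold change of 2.02 ± 0.61 missed the threshold (edgeR adjusted p = 0.0565). It passed under 5 of 15 alternative settings, in which the adjusted p ranged between 1.6e-06 and 0.389. In hatched blastocysts PHLDA2 had 33.4, 16.4 and 20.7 CPM (IVF), against 7.98 CPM in in vivo library 2 and 42.7 CPM in the unnumbered in vivo library, so that the IVF values lay inside the in vivo range. In 4-cell embryos it had 121, 25.6 and 19.7 CPM. The first of these was the highest level of PHLDA2 in any library, and 4-cell library 1 also held the highest summed trophectoderm markers of its group (863.3 CPM). That sum was mostly TFAP2C (775 CPM), and CDX2, GATA2, KRT8, KRT18 and ELF3 had no count in 4-cell library 1. The change in IVF blastocysts against 4-cell embryos was -0.35 ± 0.59 (adjusted p = 0.635), and 0.82 (adjusted p = 0.0709) without that library.

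Within a library, the count of CDKN1C over that of PHLDA2 was 5.42 and 7.59 in in vivo blastocysts and between 0.322 and 1.96 in each of the other 11 libraries. It was 0.427, 0.634 and 0.322 in IVF blastocysts, 0.406, 1.31 and 1.90 in IVF hatched blastocysts, and 1.96 and 0.366 in in vivo hatched library 2 and the unnumbered library. The 2 in vivo blastocyst libraries stand above all others in it, but it was chosen after both levels had been seen and carries no test.

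**Figure D2:**
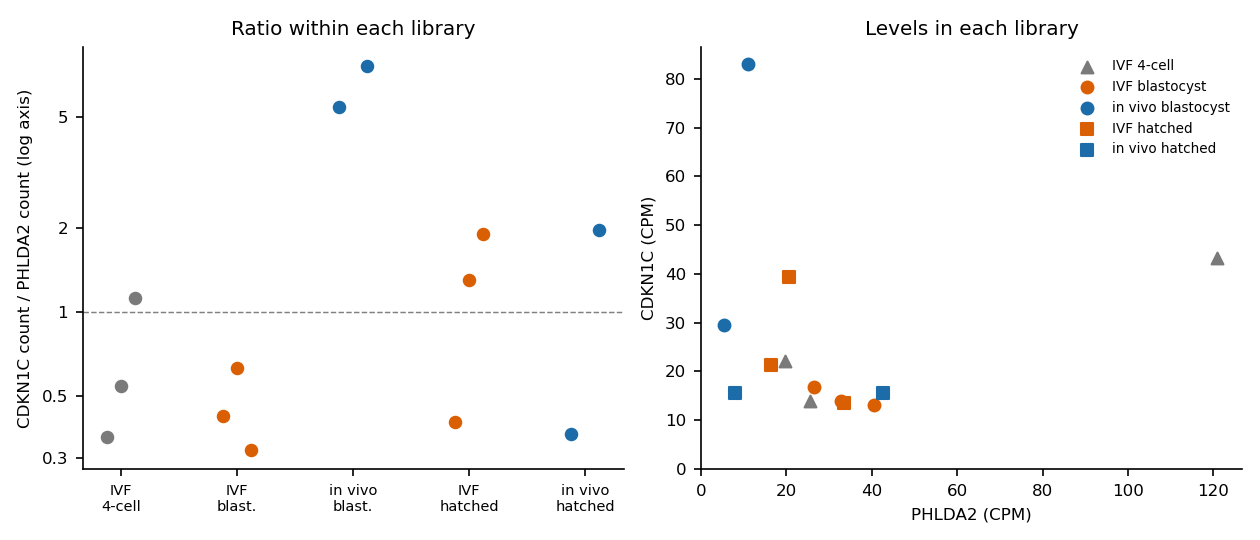
Left, CDKN1C count divided by PHLDA2 count in each library (points, log axis, dashed line at 1) by group. Right, CDKN1C against PHLDA2 in CPM for the 13 libraries. The in vivo blastocyst libraries have the 2 highest ratios, 5.42 and 7.59, and 4-cell library 1 lies apart with 121 CPM of PHLDA2.

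Of the 4 other genes expressed from the father's copy in mouse and human, 3 were far higher in 4-cell embryos than later. MEST encodes a membrane enzyme of the alpha/beta hydrolase fold. It had 298, 438 and 374 CPM in 4-cell libraries, 16.7, 34.7 and 18.7 CPM in IVF blastocysts and 17.2, 23.0 and 27.2 CPM in IVF hatched blastocysts. MEST made up 56.4% to 76.0% of the summed CPM of the 9 genes in 4-cell libraries and 16.4% to 36.0% in the others. It fell by 3.76 on the log2 scale in IVF blastocysts (SE 0.43, adjusted p = 0.000203) and by 3.78 in IVF hatched blastocysts (SE 0.43, adjusted p = 0.000193), both against 4-cell embryos.

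In vivo, MEST had 35.8 and 37.2 CPM in hatched blastocysts, against 28.6 and 34.6 CPM in blastocysts. Both in vivo hatched libraries lay above the 3 IVF hatched libraries, with a log2 fold change of -0.62 ± 0.33 for IVF against in vivo that did not pass (edgeR adjusted p = 0.244).

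PLAGL1 encodes a zinc finger transcription factor. It had 17.0, 42.9 and 43.6 CPM in the 4-cell libraries and at most 0.465 CPM in any of the other 10. It had 0.0509, 0.465 and 0 CPM in IVF blastocysts, 0, 0 and 0.138 CPM in IVF hatched blastocysts, 0.0803 and 0.256 CPM in in vivo hatched library 2 and the unnumbered library, and 0 and 0.243 CPM in in vivo blastocysts. Levels near the floor of 3 counts cannot be ordered at this depth. PLAGL1 entered the test against 4-cell embryos through its 4-cell counts alone, so that a difference was bound to appear, and passed with an adjusted p of 0.00441 for IVF blastocysts and 0.0025 for IVF hatched blastocysts. The size is not fixed by counts this low: the fitted log2 fold change lay between -9.92 and -6.84 and between -13.2 and -8.69 when a library was left out. PLAGL1 and DLK1 were below the filter on low counts in blastocysts and were not tested between IVF and in vivo embryos.

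PEG10 is derived from a retrotransposon and is required for the placenta in mouse. It had 45.4, 54.5 and 24.0 CPM in 4-cell embryos, 4.18, 1.55 and 8.30 CPM in IVF blastocysts and 3.26, 0.517 and 2.95 CPM in IVF hatched blastocysts. In vivo it had 0 and 0.427 CPM in hatched library 2 and the unnumbered library, against 1.39 and 0.539 CPM in blastocysts. It fell by 2.87 in IVF blastocysts (SE 0.80, adjusted p = 0.0137) and by 3.90 in IVF hatched blastocysts (SE 0.84, adjusted p = 0.00412) against 4-cell embryos on the log2 scale. The first call ended without IVF blastocyst library 1 (-2.77, adjusted p = 0.0534). All IVF libraries of a blastocyst stage were above the in vivo libraries of that stage. Neither difference passed, with log2 fold changes of 2.20 ± 1.20 in blastocysts (adjusted p = 0.263) and 3.41 ± 1.33 in hatched blastocysts (adjusted p = 0.121).

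PEG3 encodes a zinc finger protein linked to growth and maternal care in mouse. Its highest levels were in in vivo blastocysts. It had 6.65, 11.2 and 5.30 CPM in IVF blastocysts, against 17.6 and 18.6 CPM in in vivo blastocysts, and 8.53, 5.05 and 7.81 CPM in IVF hatched blastocysts, against 4.90 and 9.48 CPM in in vivo hatched blastocysts. The in vivo blastocyst libraries lay above all 11 others, among them the 4-cell libraries with 0, 1.41 and 5.73 CPM. The log2 fold changes were -1.26 ± 0.42 for IVF against in vivo blastocysts (edgeR adjusted p = 0.0753) and -1.40 ± 0.47 for in vivo hatched blastocysts against in vivo blastocysts (adjusted p = 0.0694), neither of which passed. PEG3 passed under 3 of 15 alternative settings in each of these comparisons. PEG3 counts were 0 to 0.0153 times those of MEST in 4-cell libraries and 0.137 to 0.615 times in the others.

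Counted over the genes, IGF2R was higher and MEST, PEG10 and PLAGL1 were lower in IVF blastocysts than in 4-cell embryos, 4 of the 8 that could be tested, PLAGL1 having entered through its high group only. Among all 16312 genes tested there, 25.7% were higher and 30.6% lower, so the share is near that of genes in general. The same 4 genes passed, in the same directions, in IVF hatched blastocysts, where 25.7% of all genes were higher and 30.9% lower. These comparisons share the 4-cell libraries. The median log2 fold change of the 8 was -0.46 in blastocysts and -0.45 in hatched blastocysts, beside -0.23 and -0.24 over all genes tested.

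Between IVF and in vivo blastocysts, 0 of the 7 tested were higher and 1 was lower (CDKN1C), against 6.09% higher and 4.74% lower of the 15528 genes tested. On hatching in vivo 0 of 7 were higher and 1 was lower, against 6.96% and 7.39% of all genes. In the difference of hatching changes CDKN1C was the 1 of 7 that passed, against 4.71% of all genes in either direction. With 7 genes, these counts cannot be set apart from the shares of all genes. In IVF against in vivo hatched blastocysts none of the 7 passed in edgeR, 1 had an unadjusted p under 0.05 (PEG10), and DESeq2 called 1, against 6.96% of all genes higher and 4.88% lower. On hatching of IVF blastocysts none passed in edgeR or DESeq2, none had an unadjusted p under 0.05, and 0.0451% of all genes were called in either direction. The 10 blastocyst and hatched libraries shared a fit. With the 4-cell libraries added to that fit, none of the 7 passed between IVF and in vivo embryos or on hatching.

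**Figure D3:**
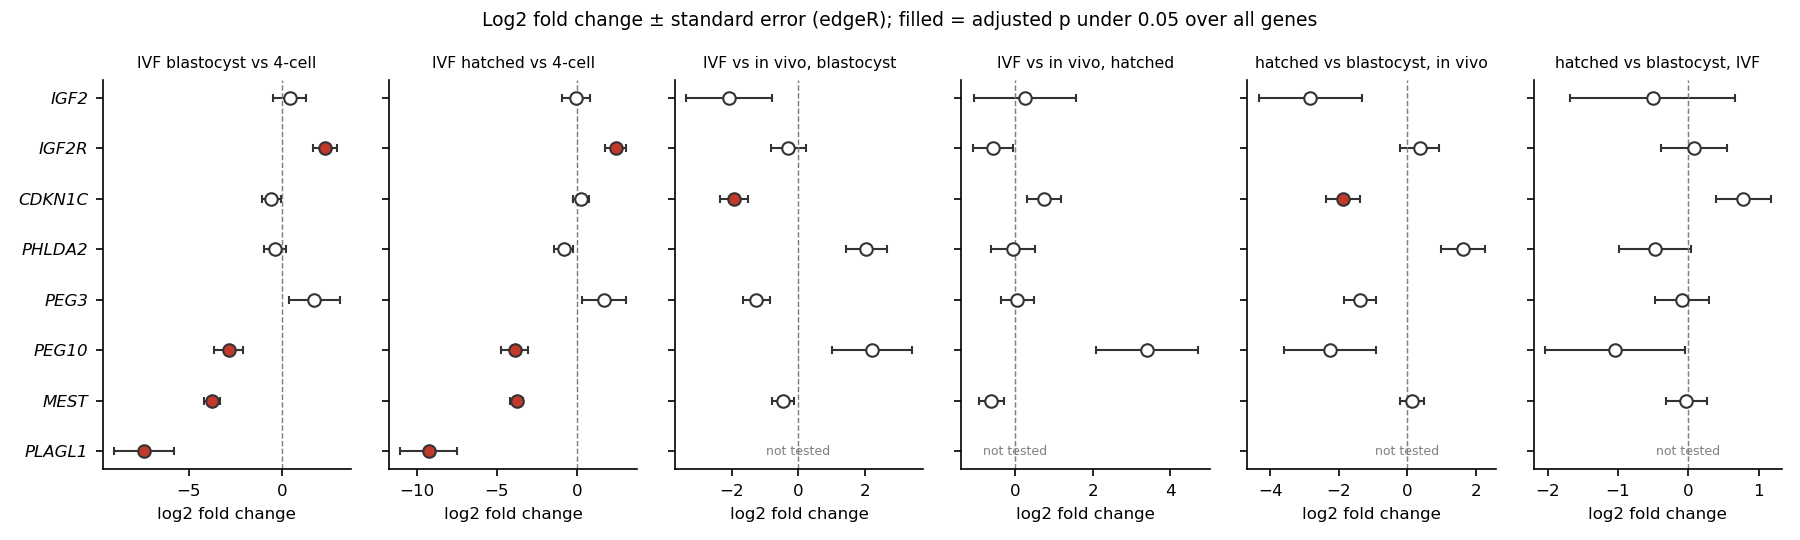
Log2 fold change (horizontal axes, a scale for each comparison) with its standard error for the 8 genes with any count in 6 comparisons. Filled points have an adjusted p under 0.05 in edgeR. MEST, PEG10 and PLAGL1 fell and IGF2R rose against 4-cell embryos, and CDKN1C alone is filled for IVF against in vivo blastocysts and for hatching in vivo.

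Genes close to the imprinted ones were described over a distance of 100 kb, since imprinted genes lie in groups. There were 41 such neighbours outside the 9 genes, of which 20 could be tested against 4-cell embryos. In IVF blastocysts 6 of them were higher and 10 lower, and the counts were the same in IVF hatched blastocysts, beside 25.7% higher and 30.6% to 30.9% lower over all genes. Some of the lower ones, LOC110255329 near PEG3 among them, had no count in the later IVF libraries. Some of the higher ones, SLC22A18 and MAS1 among them, had none in 4-cell embryos. Such genes entered the test through 1 side only, so that their direction was fixed and these counts are no result about neighbours. For IVF against in vivo embryos 1 of 18 was higher and 2 lower at either stage, beside 6.09% and 4.74% of all genes in blastocysts and 6.96% and 4.88% in hatched blastocysts.

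SGCE, COPG2 and ZIM2, neighbours of PEG10, MEST and PEG3, were highest in the 4-cell libraries. So were further genes near PEG3 and near PLAGL1. The same held near members expressed from the mother's copy in mouse, for PNLDC1 near IGF2R and KCNQ1 near CDKN1C. LTV1 near PLAGL1 averaged 625 CPM in 4-cell embryos and at most 83.4 CPM in any other group. Some neighbours of paternally expressed genes were not, CEP41 near MEST among them (1.39 CPM on average in 4-cell embryos and 9.45 in in vivo hatched blastocysts). SGCE, which encodes epsilon-sarcoglycan and lies 217 bases from PEG10, had 45.9, 27.3 and 81.8 CPM in 4-cell embryos and at most 2.92 CPM elsewhere. It fell by 5.57 on the log2 scale in IVF hatched blastocysts (SE 1.52, adjusted p = 0.0126) and by 5.01 in IVF blastocysts (SE 1.48, adjusted p = 0.0178), the second of which ended without IVF blastocyst library 1 (highest adjusted p 0.0614). COPG2, which overlaps MEST, averaged 149 ± 35.8 CPM in 4-cell embryos, 12.97 ± 3.18 CPM in IVF blastocysts and 16.6 ± 4.60 CPM in IVF hatched blastocysts (SD, n = 3 each). It fell by 3.32 in IVF blastocysts (SE 0.41, adjusted p = 0.000305). ZIM2, a zinc finger gene 88225 bases from PEG3, had 57.1, 80.7 and 58.3 CPM in 4-cell embryos and at most 7.39 CPM elsewhere, and fell by 5.62 on the log2 scale in IVF hatched blastocysts (adjusted p = 0.0104). PEG3, in contrast, had its lowest group mean in 4-cell embryos.

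ASCL2, 62042 bases from IGF2, encodes a transcription factor needed for trophoblast in mouse, where the mother's copy is expressed. It had 9.32, 34.2 and 7.45 CPM in IVF blastocysts, against 0.103 and 0.269 CPM in in vivo blastocysts. The hatched libraries had 32.4, 12.03 and 13.1 CPM (IVF), against 35.5 and 78.2 CPM in vivo, and the 4-cell libraries had 1.95, 0 and 0 CPM. ASCL2 was higher in IVF blastocysts than in those grown in vivo (log2 fold change 6.49 ± 0.98, adjusted p = 0.00448), and it rose on hatching in vivo (8.19 ± 1.05, adjusted p = 0.00112). The change in IVF minus that in vivo was -8.00 ± 1.15 (adjusted p = 0.00587). These 3 calls share the in vivo blastocyst libraries, which held 4 and 10 counts of ASCL2, so that their sizes are only loosely fixed. They held with each of the 10 libraries left out and ended with all 13 libraries in 1 fit (adjusted p of 0.22, 0.114 and 0.297). IGF2, by contrast, was highest in in vivo blastocyst library 2, in which ASCL2 had 0.269 CPM.

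Around CDKN1C and PHLDA2 the genes differed from one another. SLC22A18, a transporter gene 1923 bases from PHLDA2, had no count in 4-cell embryos. It had 3.59, 6.74 and 7.67 CPM in IVF blastocysts, against 9.21 and 19.5 CPM in in vivo blastocysts, and 7.77, 7.30 and 6.403 CPM in IVF hatched blastocysts, against 1.37 and 0.826 CPM in in vivo hatched blastocysts. At the floor of 3 counts in each 4-cell library, it was at least 67.1-fold higher in IVF blastocysts and at least 80.1-fold higher in IVF hatched blastocysts. SLC22A18 fell on hatching in vivo (-3.76 ± 0.53, adjusted p = 0.00181) and was higher in IVF than in in vivo hatched blastocysts (2.80 ± 0.49, adjusted p = 0.00511). Its difference of hatching changes was 4.05 ± 0.64 (adjusted p = 0.00787), of the same sign as that of CDKN1C. With all 13 libraries in 1 fit these SLC22A18 calls ended too (adjusted p of 0.0685, 0.118 and 0.227). CARS, which encodes a tRNA synthetase, had 116, 97.6 and 132 CPM in IVF blastocysts, against 268 and 400 CPM in in vivo blastocysts, and was likewise lower in IVF blastocysts (log2 fold change -1.55 ± 0.22, adjusted p = 0.00381, and 0.479 with all 13 libraries). NAP1L4, a histone chaperone gene 11465 bases from PHLDA2, averaged between 241 and 338 CPM in every group and passed in no comparison.

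**Figure D4:**
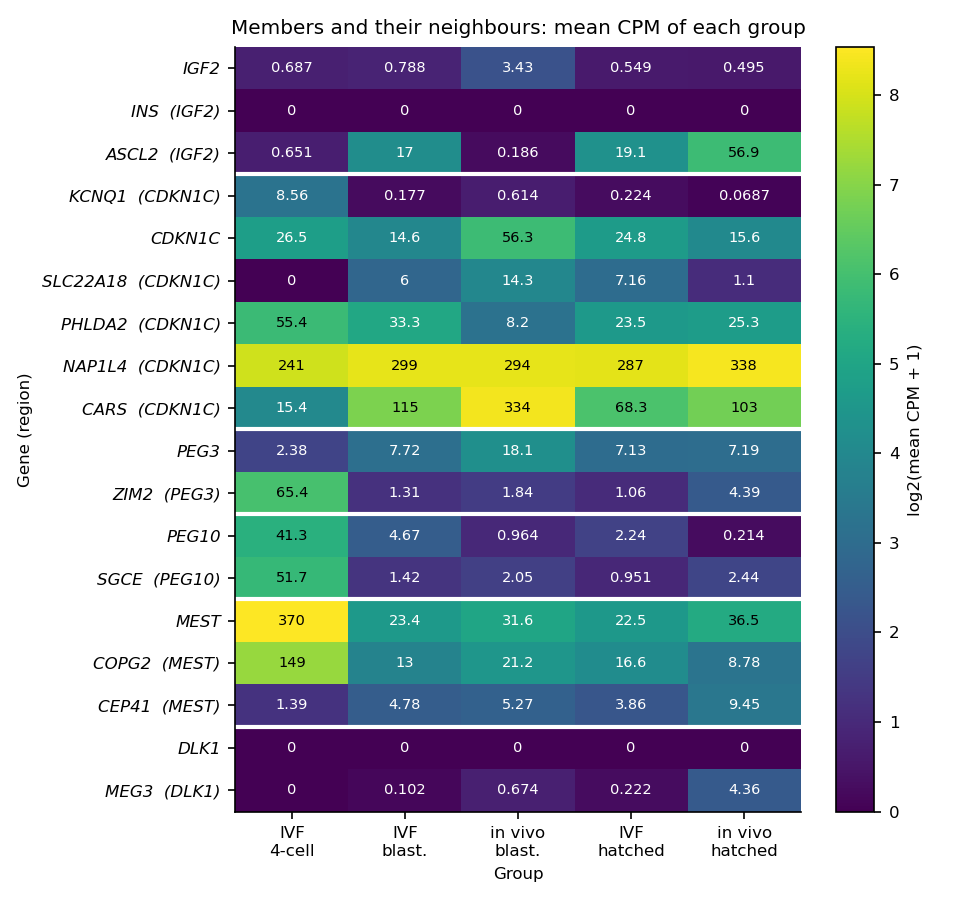
Mean CPM of each group (numbers) for imprinted genes and some of their named neighbours, with the member of the region in brackets. IGF2R, PLAGL1 and their neighbours are not shown. Colour gives log2(mean CPM + 1). SGCE, COPG2, ZIM2 and KCNQ1 are highest in 4-cell embryos, like PEG10 and MEST and unlike PEG3, and ASCL2 is near 0 in in vivo blastocysts, where CDKN1C is highest.

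Other imprinted genes, taken from lists known in mouse or human, were called in both directions against the 4-cell stage. Of the paternally expressed list, 17 of 26 had a row and 11 were tested, with 5 higher and 2 lower in IVF blastocysts than in 4-cell embryos and a median log2 fold change of 1.54. Over all genes 25.7% were higher and 30.6% lower, with a median of -0.23. The 5 fell to 2 without IVF blastocyst library 2 or 3 or IVF hatched library 1 and to 3 without IVF hatched library 2 or 3, and the 2 lower became 4 without 4-cell library 1 and 1 without IVF blastocyst library 1. NNAT, a membrane proteolipid gene, had 33.5, 32.9 and 17.97 CPM in IVF blastocysts, against 0, 0 and 1.28 CPM in 4-cell libraries 1 to 3 (log2 fold change 6.08 ± 1.65, adjusted p = 0.0122). NDN, a growth suppressor gene of the MAGE family, had 4.23, 4.65 and 10.8 CPM in IVF blastocysts, against 0, 0 and 0.327 CPM in 4-cell libraries (5.93 ± 1.53, adjusted p = 0.00985). These folds rest on 4-cell library 3, the one with counts of either gene in its group. Without it no 4-cell count was left, and the fitted log2 values of 13.1 for NNAT and 10.99 for NDN are no measure of size. NNAT and NDN entered the test through later libraries, so that their direction was largely fixed. L3MBTL1, also called higher, had no count in 4-cell embryos. The 5 higher and the median of 1.54 are therefore no result to set against the fall of MEST, PEG10 and PLAGL1. For IVF against in vivo embryos 1 of 13 was higher in blastocysts and 2 of 13 in hatched blastocysts, beside 6.09% and 6.96% of all genes, and none was lower. With a library left out these counts were 0 to 3 at either stage, with 0 in blastocysts without in vivo library 1 or IVF library 2 or 3, and 0 in hatched blastocysts without in vivo library 2. They were 2 or 3 in blastocysts without in vivo blastocyst library 2 or either in vivo hatched library, and 1 in hatched blastocysts without the unnumbered library, IVF blastocyst library 2 or any IVF hatched library.

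Of the maternally expressed list, 22 of 25 had a row and 16 were tested, with 4 higher and 5 lower in IVF blastocysts than in 4-cell embryos (median -0.06), beside 25.7% and 30.6% of all genes. Without 4-cell library 1, 8 were higher. CD81, a tetraspanin gene, averaged 1290.1 ± 146 CPM in IVF blastocysts and 241 ± 104 CPM in 4-cell embryos (2.60 ± 0.46, adjusted p = 0.00158). CALCR, the calcitonin receptor gene, averaged 0.752 ± 0.0158 CPM in IVF blastocysts and 19.9 ± 21.5 CPM in 4-cell embryos (-4.63 ± 0.93, adjusted p = 0.00297). Between IVF and in vivo blastocysts 2 of 18 were higher and none lower, beside 6.09% and 4.74% of all genes, with 1 higher without in vivo blastocyst library 1. On hatching in vivo 1 of 18 was higher and 4 lower, SLC22A18 among them, beside 6.96% and 7.39% of all genes. The 4 fell to 1 without in vivo hatched library 2 or in vivo blastocyst library 1, and to 2 without the unnumbered library, IVF blastocyst library 1 or 3, or IVF hatched library 2.

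The wider insulin and insulin-like growth factor pathway held genes that passed in both directions. Of 27 pathway genes tested, 3 were higher and 9 lower in IVF blastocysts than in 4-cell embryos (median -0.54), beside 25.7% and 30.6% of all genes. Without 4-cell library 1, 5 were higher. IGF2BP3, an RNA-binding protein that binds IGF2 message, averaged 21.3 ± 1.53 CPM in IVF blastocysts and 316 ± 78.2 CPM in 4-cell embryos (-3.68 ± 0.36, adjusted p = 9.7e-05). FOXO1, a transcription factor held back by insulin signalling, averaged 4.25 ± 1.25 CPM in IVF blastocysts and 113 ± 13.6 CPM in 4-cell embryos (-4.52 ± 0.54, adjusted p = 0.000244). PAPPA2, a protease of IGF-binding proteins, had no count in IVF blastocysts and 63.5 ± 36.3 CPM in 4-cell embryos, at least 806-fold lower in blastocysts at the floor of 3 counts per library. It entered the test through its 4-cell counts alone, so that its direction was fixed.

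At the blastocyst stage, 3 of 28 pathway genes were higher and 4 lower in IVF embryos than in vivo, beside 6.09% and 4.74% of all genes. None was higher without in vivo blastocyst library 1 or any 1 of the IVF blastocyst libraries, and 1 without IVF hatched library 2. The number lower was 1 or 2 without either in vivo blastocyst library or IVF blastocyst library 1 or 2. STC2, a secreted inhibitor of those proteases, averaged 3.45 ± 2.07 CPM in IVF blastocysts and 22.4 ± 4.54 CPM in in vivo blastocysts (-2.72 ± 0.53, adjusted p = 0.011, and 0.313 with all 13 libraries in 1 fit). Between hatched blastocysts 1 of 28 was higher and 2 lower, beside 6.96% and 4.88% of all genes, and 0 were higher without any 1 of the 5 hatched libraries. The number lower was 1 in 8 of the 10 fits without a library. IGFBP2, which binds IGF2 outside the cell, averaged 0.993 ± 0.740 CPM in IVF hatched blastocysts and 22.7 ± 14.04 CPM in in vivo hatched blastocysts (-4.39 ± 0.70, adjusted p = 0.00312, and 0.0687 with all 13 libraries). On hatching in vivo 4 of 28 were higher and 3 lower, beside 6.96% and 7.39% of all genes, with 2 to 4 higher and 0 to 4 lower when a library was left out (0 without the unnumbered library, 1 without in vivo blastocyst or hatched library 2). Among them was IGF2BP1, a relative of IGF2BP3, at 290.1 ± 13.9 CPM in in vivo hatched blastocysts and 95.4 ± 26.1 CPM in in vivo blastocysts (1.54 ± 0.22, adjusted p = 0.00188, and 0.698 with all 13 libraries).

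Relatives of the members that are not known as imprinted gave a second view. Of 14 tested, 5 were higher and 5 lower in IVF blastocysts than at the 4-cell stage, beside 25.7% and 30.6% of all genes. CDKN1A, which encodes p21, a relative of p57, averaged 229.6 ± 29.5 CPM in IVF blastocysts and 10.8 ± 0.863 CPM in 4-cell embryos (4.65 ± 0.29, adjusted p = 1.8e-05), where the change of CDKN1C was -0.56 ± 0.49 (adjusted p = 0.363). Against in vivo hatched blastocysts, the IVF ones had 2 of 15 higher and 1 lower, beside 6.96% and 4.88% of all genes, with 0 lower without in vivo hatched library 2 or IVF hatched library 1 or 3. CDKN1A averaged 224 ± 24.7 CPM in IVF and 24.9 ± 19.5 CPM in in vivo hatched blastocysts (3.23 ± 0.46, adjusted p = 0.00159, and 0.0197 with all 13 libraries in 1 fit). PHLDA3, a relative of PHLDA2 and, like CDKN1A, a p53 target, averaged 1648 ± 333 CPM in IVF and 219 ± 76.3 CPM in in vivo hatched blastocysts (2.99 ± 0.30, adjusted p = 0.000234, and 0.374 with all 13 libraries). PLAGL2, a relative of PLAGL1, averaged 8.08 ± 3.97 CPM in IVF blastocysts and 65.2 ± 21.2 CPM in 4-cell embryos (-2.76 ± 0.47, adjusted p = 0.00138).

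Genes that protect imprints or maintain DNA methylation were measured against the 4-cell stage: 2 of 25 were higher and 18 lower in IVF blastocysts, with a median log2 fold change of -2.74. Over all genes 25.7% were higher and 30.6% lower, with a median of -0.23. Without a library the counts were 2 to 4 higher (4 without 4-cell library 3) and 15 to 18 lower. Several of the listed genes are stored in the egg, and summed oocyte markers were high in the same 4-cell libraries, as given above. NLRP5 and OOEP are in both lists. PADI6, KHDC3L, OOEP and TLE6 had no count in IVF blastocysts. They entered the test through their 4-cell counts alone, so that their direction was fixed. DNMT1, the maintenance methyltransferase, averaged 11.5 ± 4.80 CPM in IVF blastocysts and 5611 ± 3645 CPM in 4-cell embryos (-8.79 ± 0.84, adjusted p = 8.2e-05). DNMT3A, which sets new methylation, averaged 19.6 ± 5.25 CPM in IVF blastocysts and 591 ± 51.0 CPM in 4-cell embryos (-4.68 ± 0.35, adjusted p = 3.1e-05). For IVF against in vivo blastocysts 1 of 23 was higher (TET1, a demethylation enzyme) and none lower, beside 6.09% and 4.74% of all genes. The TET1 call ended without either in vivo blastocyst library and with all 13 libraries in 1 fit (adjusted p = 0.273). Between hatched blastocysts none was higher and 3 were lower, beside 4.88% of all genes, and only 1 without in vivo hatched library 2, IVF blastocyst library 2 or any IVF hatched library. DNMT3B, also a methyltransferase, averaged 4.18 ± 2.84 CPM in IVF and 51.4 ± 27.8 CPM in in vivo hatched blastocysts (-3.53 ± 0.54, adjusted p = 0.00242, and 0.0308 with all 13 libraries in 1 fit). At the hatched stage, summed hypoblast markers were 402 to 951 CPM in IVF and 4403 and 10283 CPM in vivo, and their part in these list counts was not tested.

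**Figure D5:**
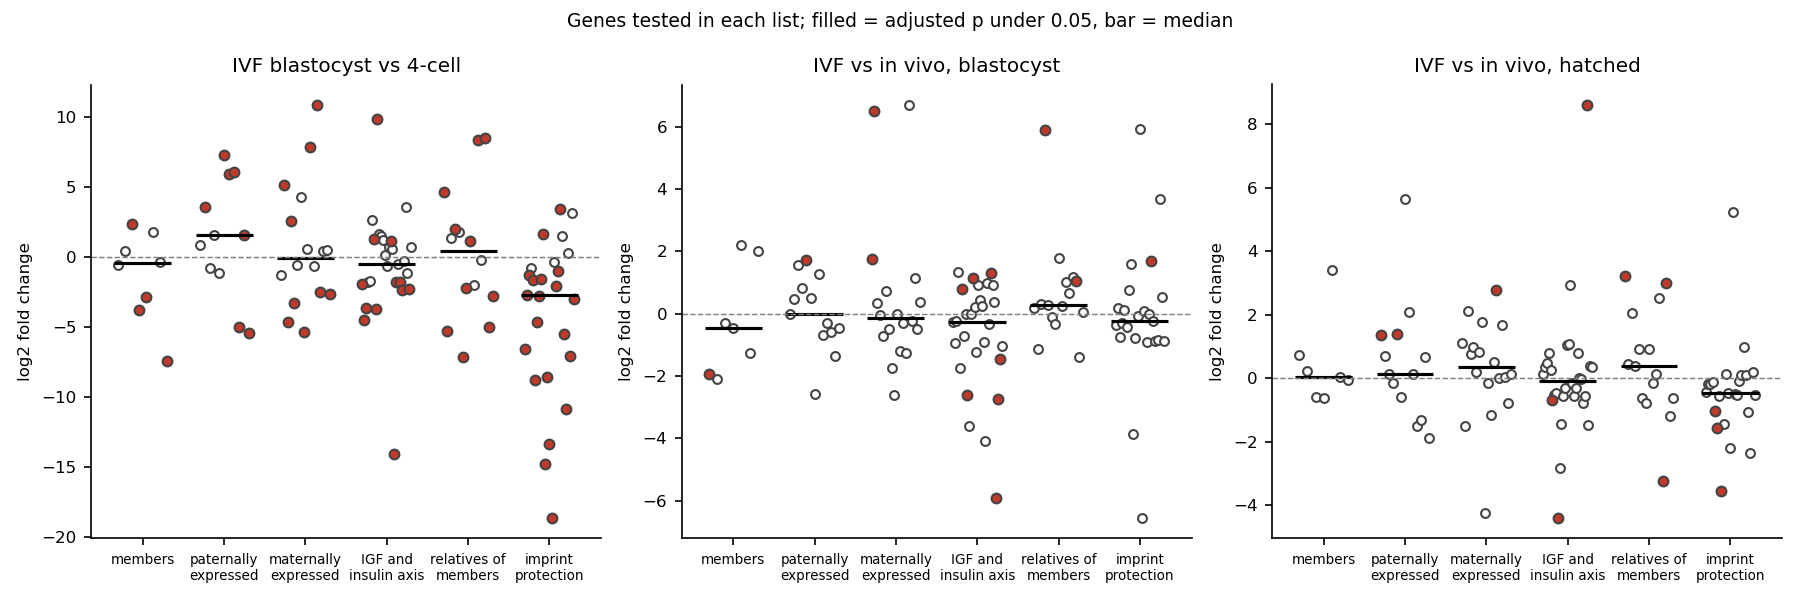
Log2 fold change (vertical axes, a scale for each comparison) of every gene tested in the imprinted genes described here (members) and in 5 lists, in 3 comparisons. Filled points have an adjusted p under 0.05 in edgeR and bars are medians. In the comparison of IVF blastocysts with 4-cell embryos the imprint protection list has its median at -2.74 and the paternally expressed list at 1.54. Both lists hold genes that entered this test through their 4-cell or their later counts alone.

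Over the 13 libraries the correlation of log2(CPM + 1) was 0.980 between MEST and PLAGL1, 0.857 between PEG10 and PLAGL1 and -0.813 between IGF2R and PEG10. Those with PLAGL1 rest on the gap between 4-cell and later libraries, and that of IGF2R and PEG10 was -0.477 without the 4-cell libraries. Over the 10 blastocyst and hatched libraries, CDKN1C and IGF2 had a correlation of 0.769, with both highest in in vivo blastocyst library 2, CDKN1C and PEG3 one of 0.646, CDKN1C and PHLDA2 one of -0.533, and MEST and PEG10 one of -0.772. PLAGL1 was left out there for its near-zero counts. Points of 1 library share its depth and its embryos, and these values are descriptions without a test.

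By the same measure over 13 libraries, the genes most like each member among those with at least 5 CPM in a group were FEZ2, PALM2 and CCDC6 for MEST (up to 0.990), CFAP206, EDIL3 and FSD2 for PLAGL1 (up to 0.999), and UBL5, MAP3K13 and PDPK1 for PEG10 (up to 0.953). For IGF2R they were ERBB2, PRSS8 and ROGDI (up to 0.940), and for PEG3 they were U2AF1L4, NAGK and DNTTIP1 (up to 0.933). The nearest to PHLDA2 were POLR2H and TMCO4 (up to 0.906), to IGF2 C4H1orf68, PLCL2 and CYP1A1 (up to 0.862), and to CDKN1C USP32, ARIH2 and HDAC6 (up to 0.842). The pattern of CDKN1C was thus the least closely matched, and no neighbour within 100 kb was among these genes.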

How the data were processed

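Gene counts were taken from 1 table of 28232 genes that the authors deposited as whole-number counts per library, with no normalization. The FPKM values, scaled by gene length and library size, were deposited by the authors too and serve for levels between genes. Of the 39 value columns, 14 were not used: those in TPM, and the FPKM column of an in vivo hatched library that could not be tied to the unnumbered count column. RSEM, StringTie 1.3.1, HISAT2, Bowtie2 and fastp 0.18.0 are named, with no role or order, per the submitters' processing notes. Strand use and the splitting of shared reads are not given in the sources used here. Positions come from RefSeq (Sscrofa11.1), which matched 28208 gene numbers. Promoter and protein sequences were not used here.

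The quasi-likelihood test of edgeR 4.0.16 (R 4.3.3) was fitted on counts after the filterByExpr filter and TMM scaling, with Benjamini-Hochberg adjustment over all tested genes, on the 10 blastocyst and hatched libraries (15528 genes) and on the 9 IVF libraries (16312 genes). A gene was called where its adjusted p was under 0.05. The fit was tested on simulated data. DESeq2 1.42.0, RLE factors, no filter, all 13 libraries in 1 fit, a replicate block and each library left out were the alternatives, with TMM-scaled CPM and FPKM for levels.

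Samples were grouped by origin and stage from the labels. Floors cover counting error only. All members were named, and in each comparison up to 4 called genes of each of the 5 lists by smallest p; the text shows a selection of those, mostly ones whose call held with any library left out. CARS and NAP1L4 were picked after their values were seen. For likeness, members with at least 1 CPM in a group were used, with 3 genes each, of which 1 is not reported here. The 9 marker lists were summed per library. The members and lists were chosen with earlier results of these data known.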

Additional observations from a re-analysis of the deposited data

Results flagged for a closer look

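The change on hatching differed between IVF and in vivo embryos for CDKN1C, for its neighbour SLC22A18 and for 7 other named genes. The difference is the hatching change in IVF minus that in vivo, on the log2 scale, in edgeR's quasi-likelihood test with Benjamini-Hochberg adjustment. All of them share the 2 in vivo blastocyst and the 2 in vivo hatched libraries. The named genes were kept because they were called, among 7 members and 13, 18, 28, 15 and 23 listed genes tested. Over all 15528 genes tested, 4.71% were called in either direction. For CDKN1C the difference was 2.66 (adjusted p = 0.0364), a call that held in 2 of the 10 fits without a library. For ASCL2, with 4 and 10 counts in in vivo blastocysts, it was -8.00 (adjusted p = 0.00587), and for SLC22A18 it was 4.05 (adjusted p = 0.00787). COPG2, uncertain for its overlap with MEST, had 1.71 (adjusted p = 0.0497), and that call held in none of the 10 fits without a library, where the adjusted p reached 0.128.

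In the growth factor pathway, IGF2BP1 had -1.46 (adjusted p = 0.0171), a call that ended without in vivo blastocyst library 1 (adjusted p = 0.0651). STC1, an inhibitor of proteases of IGF-binding proteins, had a fitted value of 14.5 (adjusted p = 0.0231), which is no measure of size since both in vivo hatched libraries had no count. That call ended without in vivo hatched library 2 or IVF hatched library 1 (adjusted p of at most 0.0733). STC1 had 2.83, 0.517 and 0.497 CPM in IVF hatched libraries 1 to 3 and no count in in vivo hatched blastocysts, a difference whose call held in 5 of the 10 fits without a library. Among relatives of the members, CDKN1A had 3.04 (adjusted p = 0.0169) and PHLDA3 1.93 (adjusted p = 0.0174). DNMT3B had -5.13 (adjusted p = 0.00781). With all 13 libraries in 1 fit none of these 9 differences passed, with an adjusted p of 0.0982 for DNMT3B and of 0.153 or more for the others. Summed hypoblast markers were 4403 and 10283 CPM in the in vivo hatched libraries and at most 1629 CPM in the other blastocyst libraries, and their part in these differences was not tested.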

How the results depend on the processing

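The 4 calls against 4-cell embryos kept within 1.5 times their count in all alternatives. Between IVF and in vivo blastocysts 1 gene was called, and 3 with DESeq2, 3 with no filter, 0 with all 13 libraries in 1 fit and 0 to 3 with a library left out. Between hatched blastocysts the count was 0, and 1 with DESeq2, 1 with no filter and 0 to 2 with a library left out. For hatching in vivo it was 1, and 3 with DESeq2, 3 with no filter, 0 with all 13 libraries and 0 to 2 with a library left out. For the difference of hatching changes it was 1, and 2 with no filter, 0 with all 13 libraries and 0 to 1 with a library left out. Over all genes, the calls between IVF and in vivo blastocysts were 1681, and 2900 with DESeq2, 2749 with no filter, 7 with all 13 libraries, 320 without in vivo blastocyst library 1 and 831 and 702 without IVF blastocyst library 1 and 2. Between hatched blastocysts they were 1839, and 2988 with DESeq2, 2850 with no filter, 92 with all 13 libraries, 513 without in vivo hatched library 2 and 1046, 1072 and 984 without IVF hatched library 1, 2 and 3. On hatching in vivo they were 2228, and 3516 with DESeq2, 101 with all 13 libraries, 1064 without in vivo blastocyst library 1 and 1086 without in vivo hatched library 2. On IVF hatching they were 7, and 49 with DESeq2, 162 with no filter, 0 with all 13 libraries and 4 without IVF blastocyst library 1 or 3, and in the difference of changes 732, and 1879, 1855 and, with all 13 libraries, 1, and 333 to 453 without in vivo blastocyst library 1, in vivo hatched library 2 or any IVF library. With the replicate block these 5 counts were 1028, 1145, 1146, 5 and 347. The cause was not tested.

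Same-numbered libraries did not deviate together (correlations of -0.133 to 0.027 in 19 pairs), so the numbers were not taken as pairs. The replicate block, which drops the unnumbered library, gave 2 calls between IVF and in vivo blastocysts, 1 between hatched blastocysts and 0 for the difference of changes. Under the block, signs turned for IGF2 (-1.02) and PHLDA2 (1.55) between hatched blastocysts, MEST (-0.24) and PHLDA2 (-0.071) on hatching in vivo, MEST on IVF hatching (0.014) and MEST in the difference of changes (0.25).

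With a library left out, signs turned for uncalled values in these ranges of the log2 fold change. They were -0.80 to 0.31 for IGF2R between blastocysts, and -0.74 to 7.36 for IGF2, -0.85 to 1.68 for PHLDA2 and -0.40 to 0.66 for PEG3 between hatched blastocysts. On hatching in vivo they were -0.044 to 0.97 for IGF2R and -0.13 to 2.39 for PHLDA2, and on IVF hatching -0.56 to 0.57 for IGF2R, -0.22 to 0.38 for MEST and -0.30 to 0.29 for PEG3. In the difference of changes they were -0.91 to 0.21 for IGF2R and -0.36 to 0.24 for MEST. Against 4-cell embryos they were -0.68 to 0.82 for PHLDA2 in IVF blastocysts, and -1.15 to 0.34 for PHLDA2, -0.70 to 0.60 for IGF2 and -0.20 to 0.70 for CDKN1C in IVF hatched blastocysts. Where 1 library remained in a group, it was assumed to vary like the others. With TMM-scaled CPM, 3 levels moved by more than 1 SD: PEG3 in in vivo blastocysts to 19.3, MEST in in vivo hatched blastocysts to 37.7 and CDKN1C there to 16.2 CPM.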
